A study of Saccharomyces cerevisiae with 27 samples.

Results

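The genes described here are the ribosome biogenesis factors of budding yeast whose standard name is NOP, UTP, RRP, NOC, RPF, DBP or IMP followed by a number. They were taken by name from the authors' deposited table, where 71 of 6709 genes carried such a name: 18 UTP, 18 RRP, 17 NOP, 9 DBP, 4 IMP, 3 NOC and 2 RPF genes. The rule itself uses names and no measured value, but it was set with earlier results of these data known. RNA was sequenced from 27 poly-A selected libraries of Saccharomyces cerevisiae S288C, in 9 groups of 3, and the authors compared the groups in 5 pairs. In a strain with the MET3 promoter integrated in front of OLE1, which encodes the acyl-CoA desaturase, OLE1met250 (low lipid unsaturation, repressed) was set against OLE1met0 (high lipid unsaturation, unrepressed, without methionine). The treatment label of OLE1met250 reads 0 uM methionine, whereas its title carries 250 and the file header calls it the culture with methionine. By title and header, this pair of cultures therefore differs in methionine supply as well as in the planned state of OLE1. An effect of methionine by itself was not tested. A pair of plasmid strains, pCM188-SPT23p90 and pCM188-MGA2p90, were compared without doxycycline, which lets the processed SPT23 or MGA2 fragment be expressed, and with doxycycline, which represses it, so that drug and fragment change together. The background strain BY4742, kept for 90 min under argon (ArgonST) or grown with long-term hypoxic exposure in a microfermenter (ArgonLT), was compared each time with the same aerobic libraries (BY).

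Ribosomes are assembled in the nucleolus. RNA polymerase I transcribes a long precursor that is folded, modified, cut and joined to ribosomal proteins by a large set of assembly factors, first in the small-subunit processome, or 90S particle, and then along separate paths to the 40S and 60S subunits. In budding yeast these factors are known as the ribosome biogenesis regulon, whose transcripts follow growth rate and nutrient signals together and whose promoters often carry 2 sequence elements called PAC and RRPE.

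A shared name does not mean a shared function. Each member was placed in 1 class by a known role, which does not exclude other roles. In this classing 30 of the 71 members act on the 90S particle or the 40S subunit, 23 on the 60S subunit and 1 (RRP5) on both. A further 5 are proteins of small nucleolar ribonucleoproteins (snoRNPs, which guide rRNA modification and cleavage), and 7 belong to the exosome, the RNA-trimming complex. The other 5 are best known for another function: IMP1 and IMP2 are subunits of the mitochondrial inner membrane peptidase, DBP5 is the helicase of mRNA export, DBP1 is a close relative of the translation helicase Ded1, and DBP2 is a helicase of mRNA-protein assembly that has also been tied to rRNA processing. They were kept as members, since the choice is by name, and are given apart. The DEAD-box helicase also known as DBP4 is listed as HCA4 and is therefore not a member.

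Every log2 fold change below is the value in the authors' deposited table, with the first group named as numerator, and comes without an error or a value per library, so the spread between the 3 libraries enters only through the authors' q (a p value corrected by them for the number of genes tested). A gene is said to rise or fall where that q was under 0.05. The depth is unknown. As a check of the groups, SPT23 was at 2.55 and MGA2 at 3.73 where each fragment was to be expressed, but OLE1 was at -0.03 in OLE1met250 (q 0.925), so the targeted gene does not check that label. MGA2 does not mark its own comparison alone: it was at 4.33 in OLE1met250 (q 0.000304), higher than with its own fragment, at 2.23 in ArgonLT and at -1.46 with the SPT23 fragment, each called. None of the members was listed at 10 or -10, the values that stand for a group at 0. All 71 members had a test in OLE1met250 and ArgonLT and 70 in each of the other comparisons, where RRP17 (SPT23 fragment) or DBP1 (MGA2 fragment, ArgonST) carried a q of 1. The loci of 9 members (IMP1, NOP4, NOP13, NOP56, NOP58, RRP9, RRP14, RRP15 and RRP17) are shared with another open reading frame in the table, on the opposite strand in 8, and no source used here says whether reads were counted by strand, so their values are uncertain.

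Promoters of the members often held PAC and RRPE, which were already known as elements of this regulon. For each of 6001 protein-coding genes the 300 bases from 250 before to 50 into the gene were read from RefSeq's R64 genome. In all 71 members the annotated start is an ATG, so these windows are placed on the start codon and not on a mapped transcription start. They were searched for the PAC core GATGAG, which reads CTCATC on the other strand, and for the RRPE core AAAATTTT, which is its own reverse complement; by their letters the 2 cannot overlap. The PAC core was found in 58 of 71 member promoters (81.7%) and in 1222 of all 6001 (20.4%). The RRPE core was found in 42 (59.2%) against 542 (9.03%), and both together in 38 (53.5%) against 263 (4.38%). Members whose windows hold neither core number 9 (12.7%), against 4500 of 6001 in all promoters. A match is a run of letters and not a shown binding site.

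The promoters of 3 of the 4 members called in 3 comparisons are shown because they stand for the most widely changed members, together with that of DBP1, the name match with a different function that changed in the opposite direction. They are written 5′ to 3′ in the direction of the gene, on R64, and capitals mark the PAC and RRPE cores.
UTP9, plus strand, chrVIII:491681-491980: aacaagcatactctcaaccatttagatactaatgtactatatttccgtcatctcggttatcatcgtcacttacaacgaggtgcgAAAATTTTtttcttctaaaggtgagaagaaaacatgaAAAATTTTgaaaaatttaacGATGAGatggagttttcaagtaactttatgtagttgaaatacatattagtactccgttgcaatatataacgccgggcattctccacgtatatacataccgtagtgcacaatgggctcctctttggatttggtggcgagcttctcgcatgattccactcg
UTP25, minus strand, chrIX:193146-193445: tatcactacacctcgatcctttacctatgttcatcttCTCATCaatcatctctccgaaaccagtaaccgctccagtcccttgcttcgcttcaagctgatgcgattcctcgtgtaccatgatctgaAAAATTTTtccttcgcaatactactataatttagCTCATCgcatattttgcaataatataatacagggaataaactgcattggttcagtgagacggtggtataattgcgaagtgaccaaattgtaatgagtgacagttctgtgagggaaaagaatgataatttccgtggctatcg
RRP7, minus strand, chrIII:65519-65818: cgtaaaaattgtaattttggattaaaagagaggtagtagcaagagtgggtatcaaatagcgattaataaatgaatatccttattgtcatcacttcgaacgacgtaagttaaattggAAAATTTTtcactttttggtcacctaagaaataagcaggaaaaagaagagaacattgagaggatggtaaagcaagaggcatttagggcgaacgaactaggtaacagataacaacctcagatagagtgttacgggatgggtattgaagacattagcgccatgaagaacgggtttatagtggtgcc
DBP1, minus strand, chrXVI:326215-326514: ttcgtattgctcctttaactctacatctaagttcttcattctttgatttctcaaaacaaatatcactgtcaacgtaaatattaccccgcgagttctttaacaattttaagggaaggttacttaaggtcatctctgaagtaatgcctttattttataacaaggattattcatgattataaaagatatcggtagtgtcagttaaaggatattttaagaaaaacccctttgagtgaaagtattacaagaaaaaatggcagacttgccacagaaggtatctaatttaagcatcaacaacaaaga

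UTP9, which has 2 RRPE cores followed by 1 PAC core, shows the order of the member medians given next. UTP25 has 1 RRPE core between 2 PAC cores, RRP7 has 1 RRPE core and no PAC core, and DBP1 has neither. Over all members the PAC core started at a median of 119 bases and the RRPE core at a median of 134.5 bases before the start codon. Of 88 PAC matches 84.1% and of 50 RRPE matches 92.0% began between 200 and 51 bases before it, against 60.2% and 75.3% of the matches in all promoters.

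**Figure D1:**
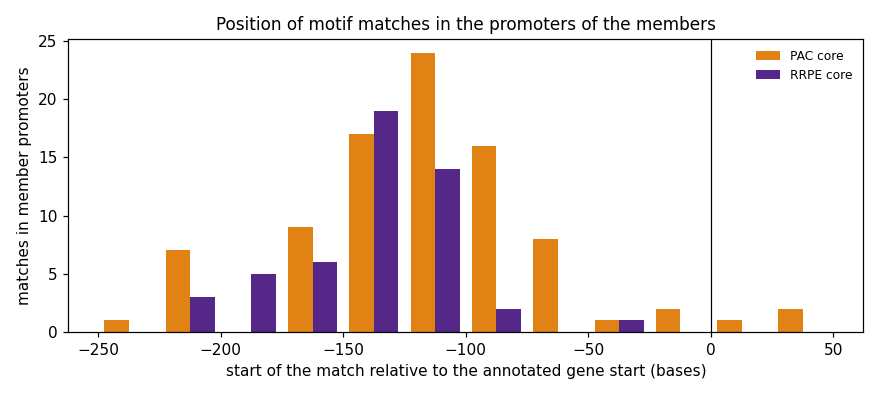
Start of each PAC core (orange, 88 matches) and RRPE core (purple, 50 matches) in the 71 member promoters, in bins of 25 bases, relative to the annotated gene start at 0. Matches to both cores gather between 150 and 75 bases before the start, with the RRPE core slightly farther out.

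The classes differed in these elements. Of the 23 factors of the 60S subunit, 22 had a PAC core and 15 an RRPE core. All 5 snoRNP proteins among the members had a PAC core, as did the 4 members that belong to UtpB, a subcomplex of the processome. Of the 7 exosome members 3 had a PAC core and 1 an RRPE core, and of the 5 name matches with another function only DBP2 had either, with 1 of each. UTP22 and UTP30 of the 90S group and the exosome subunits RRP42, RRP45 and RRP46 had neither, beside DBP1, DBP5, IMP1 and IMP2.

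The members moved mainly downwards, except with the SPT23 fragment. Pooled over the 5 comparisons, 269 of 352 tested member values in the authors' deposited table were below 0. Of all 352, 75 were called lower and 5 higher, and 51 of the 71 members were called at least once. These pooled counts have no share over all genes beside them, so shares follow by comparison. With the SPT23 fragment 37 of 70 members were below 0, beside 3027 of 5626 tested genes. In OLE1met250, 28 of 71 members fell (39.4%) where 14.5% of all tested genes did, and 1 rose (1.41%) where 16.7% of all genes did. In ArgonLT, 25 of 71 fell (35.2%) against 18.4% of all genes, and 3 rose (4.23%) against 24.1%. With the MGA2 fragment, 14 of 70 fell (20%) against 8.58%, and none rose against 12.2%. With the SPT23 fragment, 6 of 70 fell (8.57%) against 5.49% of all genes, and 1 rose (1.43%) against 6.86%. In ArgonST, 2 of 70 fell (2.86%), a share near the 2.41% of all genes, and none rose against 4.86%. These calls are the authors' Cuffdiff calls at q under 0.05, and no test of the members as a set was made.

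The median log2 fold change of tested members was -0.48 in OLE1met250, -0.37 in ArgonLT, -0.31 with the MGA2 fragment, -0.11 in ArgonST and -0.02 with the SPT23 fragment, per the authors' deposited table. Over all tested genes it was -0.01, 0.10, -0.02, 0.05 and -0.04 in the same order. Most of these changes were small. Only 11 of the 28 falls in OLE1met250 and 9 of the 25 in ArgonLT reached 2-fold, and 1 of the falls with each fragment did.

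**Figure D2:**
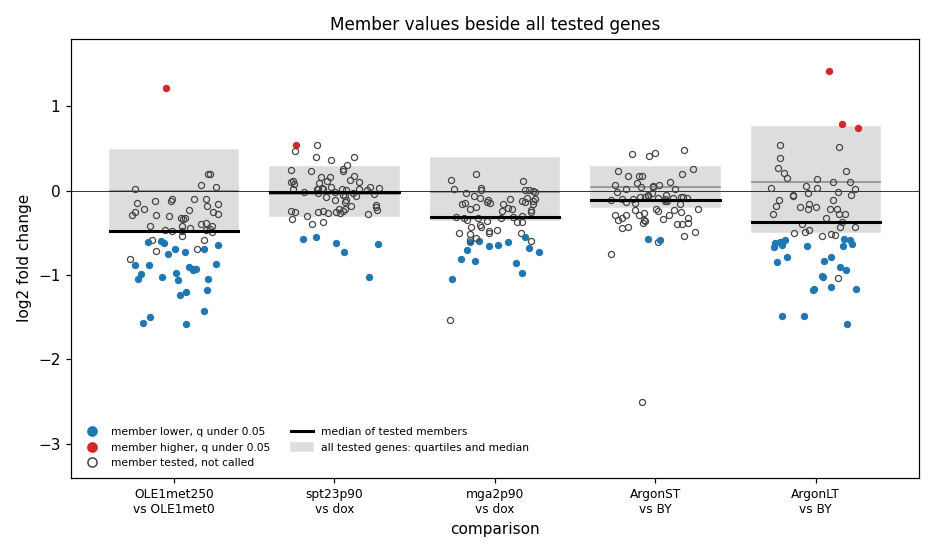
Log2 fold change of each tested member (points; blue lower and red higher at a q under 0.05, open circles not called) in the 5 comparisons, with the member median (black line) and the quartiles and median of all tested genes (grey box and line). In OLE1met250, ArgonLT and the MGA2 fragment comparison the member median lies at -0.48, -0.37 and -0.31, below that of all genes, and the open circle at -2.50 in ArgonST is RRP17.

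In OLE1met250 the falls were spread over the path of ribosome assembly. Of the 30 members of the 90S particle and 40S subunit 14 fell (median -0.67), of the 23 members of the 60S subunit 10 fell (median -0.54), and none of either group rose. By name, 9 of 18 RRP, 8 of 18 UTP, 5 of 17 NOP, 2 of 3 NOC, 2 of 9 DBP, 1 of 4 IMP and 1 of 2 RPF genes fell. RRP3 (YHR065C, chromosome VIII, 227532 to 229037), a DEAD-box helicase needed to process 18S rRNA, fell by 1.58 on the log2 scale in the authors' deposited table, or 2.99-fold (q 0.000304). NOP19 (YGR251W, chromosome VII, 995639 to 996229), a 90S factor, fell by 1.57, or 2.97-fold. UTP9 (YHR196W, chromosome VIII, 491931 to 493658), of the UtpA complex that binds the precursor rRNA first, fell by 1.50, or 2.83-fold. IMP4 (YNL075W, chromosome XIV, 485607 to 486479), which joins U3 snoRNA to the precursor, fell by 1.42, or 2.68-fold.

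Within UtpA the members divided. UTP9, UTP8 (-1.06) and UTP15 (-1.02) fell in OLE1met250, while UTP5 at -0.33, UTP4 at -0.33 and UTP10 at -0.25 did not pass the authors' q. Of UtpB, UTP21 fell by 0.70 on the log2 scale, and UTP6 at -0.81 was just outside the threshold (q 0.0516). Of UtpC, RRP7 fell by 0.64 and UTP22 was at -0.12. Of the other 90S and 40S factors, UTP30 (-1.20), NOP14 (-1.17), UTP11 (-0.97), UTP25 (-0.92), UTP23 (-0.91) and NOC4 (-0.88), the partner of Nop14, all fell. UTP7 at 0.19 was the highest of the UTP genes and was not called.

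Among the 60S factors in OLE1met250, RRP1 fell by 1.05 on the log2 scale, NOP53, which guides the exosome to its precursor rRNA, by 1.04, and NOP12 by 0.99. RRP8, a methyltransferase of the large-subunit rRNA, fell by 0.88 and the helicase DBP6 by 0.87. NOP15 (-0.75), RPF1 (-0.72), DBP9 (-0.69), NOC2 (-0.62) and RRP14 (-0.59), the last with a q of 0.0398 just inside the threshold, completed the 10. NOP2, another rRNA methyltransferase, was at 0.20 and uncalled. Of the exosome, RRP43 fell by 1.24, RRP45 by 0.93 and RRP4 by 0.61 in the authors' deposited table, and RRP40 was at 0.02. Of the snoRNP proteins only RRP9, which belongs to the U3 particle, fell (-0.94), while NOP1, NOP56, NOP58 and NOP10 lay between -0.49 and -0.30 without a call. The 1 rise was that of DBP1 (YPL119C, chromosome XVI, 324411 to 326264), at 1.22, or 2.33-fold (q 0.000304).

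With the SPT23 fragment few members changed. UTP18 (YJL069C, chromosome X, 310922 to 312706), the UtpB subunit that recruits the exosome helicase Mtr4, had the largest fall, at -1.02 or 2.03-fold (q 0.000826) in the authors' deposited table. UTP25 (-0.72), RRP7 (-0.63), DBP6 (-0.62), UTP9 (-0.58) and UTP8 (-0.54) also fell. By family these are 4 of 18 UTP, 1 of 17 tested RRP and 1 of 9 DBP genes, and no NOP, NOC, RPF or IMP gene was called. RRP3 rose by 0.55 (q 0.0419), the reverse of its fall in OLE1met250. UTP7 at 0.31, NOP8 at 0.47 and IMP3 at 0.54 were the highest of their families and were not called.

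With the MGA2 fragment the falls of members lay mostly in the small-subunit group. Of its 30 members 10 fell (median -0.37) and of the 23 members of the 60S subunit 3 did (median -0.31), per the authors' deposited table. Assembly factors with other names, described below, fell in near shares, 5 of 35 for the 90S particle and 40S subunit and 7 of 53 for the 60S subunit. The difference between the groups was not tested. All 18 UTP genes were below 0, and 6 of them fell. UTP9 fell by 1.05 on the log2 scale, or 2.07-fold (q 0.000304), UTP15 by 0.86, UTP20, a large scaffold protein of the processome, by 0.83, UTP25 by 0.68, UTP14, the activator of the helicase that releases U3, by 0.64 and UTP22 by 0.60. DBP8 (YHR169W, chromosome VIII, 442181 to 443476), a 40S helicase, fell by 0.98, or 1.97-fold (q 0.00472). No member rose at a q under 0.05 or under 0.1. RRP36 (-0.81), RRP12 (-0.70), RRP9 (-0.60) and NOC4 (-0.60) were the other falls outside the 60S group. On the 60S side RRP14 (-0.73), RPF2 (-0.66), which brings the 5S rRNA particle into the pre-ribosome, and NOP4 (-0.55) fell. NOP7 at -0.56 was just outside the threshold (q 0.0523). None of the 7 exosome members was called, and they lay between -0.25 and 0.19.

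After 90 min under argon few members were called in the authors' deposited table. UTP7 at -0.58 (q 0.0348) and the 60S helicase DBP7 at -0.58 (q 0.0497) fell, and no other member was called, though 51 of 70 tested members were below 0. RRP36 at -0.75 came closest among the uncalled (q 0.0710). NOC4 at 0.49 and the exosome subunit RRP42 at 0.45 were the highest values. No member rose by Cuffdiff's q under 0.05, and 2 had a positive value at a q under 0.1. An unadjusted p was not used here.

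In ArgonLT 4 of the 5 snoRNP proteins fell, and 2 of them, NOP1 and NOP56, had the largest falls of all members. NOP1 (YDL014W, chromosome IV, 427364 to 428347), the fibrillarin methyltransferase of box C/D snoRNPs, fell by 1.59 on the log2 scale, or 3.00-fold (q 0.000304), in the authors' deposited table. NOP56 (YLR197W, chromosome XII, 546097 to 547611), a scaffold of the same particles, fell by 1.49, or 2.80-fold, and its partner NOP58 by 0.94. NOP10, of the H/ACA snoRNPs that guide pseudouridylation, fell by 0.79 (q 0.0432). The U3 protein RRP9 was at 0.23 and uncalled. In ArgonST, which shares its BY libraries with ArgonLT, NOP1, NOP56, NOP58 and NOP10 were at -0.11, -0.16, -0.32 and 0.07, all uncalled.

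The 60S factors in ArgonLT fell in 7 of 23 members (median -0.28). NOP7 (YGR103W, chromosome VII, 695417 to 697234), the yeast pescadillo protein, fell by 1.48, or 2.79-fold. RRP1 (-1.03), RPF2 (-1.01), RRP8 (-0.91), NOP12 (-0.67), the helicase DBP3 (-0.66) and NOP53 (-0.65) followed. RRP5, which serves both subunits, fell by 1.16 on the log2 scale. RPF1 at 0.54 had the opposite sign to RPF2 and was just outside the threshold (q 0.0514).

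The small-subunit group in ArgonLT fell in 11 of 30 members (median -0.45), and 1 rose. Both members that belong to UtpC fell, RRP7 by 1.18 on the log2 scale and UTP22 by 0.64. UTP30 fell by 1.14, UTP8 by 0.85, UTP23, an 18S processing factor, by 0.83 and UTP20 by 0.79. UTP21 (-0.63), RRP12 (-0.62), NOP9 (-0.61), NOP6 (-0.58) and IMP4 (-0.58) had smaller falls in the authors' deposited table. NOP19 rose by 0.79 (q 0.0171), having fallen in OLE1met250. By family, 9 of 17 NOP, 6 of 18 UTP, 6 of 18 RRP, 2 of 9 DBP, 1 of 4 IMP, 1 of 2 RPF and none of 3 NOC genes fell.

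Of the 7 exosome members in ArgonLT 1 rose and 1 fell, where 24.1% of all tested genes rose and 18.4% fell. RRP4, of the RNA-binding cap of the exosome, rose by 0.74 (q 0.00581). RRP6, the nuclear exonuclease of the complex, fell by 0.58, and the other 5 lay between -0.21 and 0.27 in the authors' deposited table. Of the name matches with another function, DBP1 rose by 1.41, or 2.66-fold (q 0.00738), and DBP5 fell by 1.17, while IMP1, IMP2 and DBP2 were not called. DBP1 therefore gave 2 of the 5 rises seen in the whole set, RRP3, NOP19 and RRP4 the other 3, and each of these 3 had fallen in OLE1met250.

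**Figure D3:**
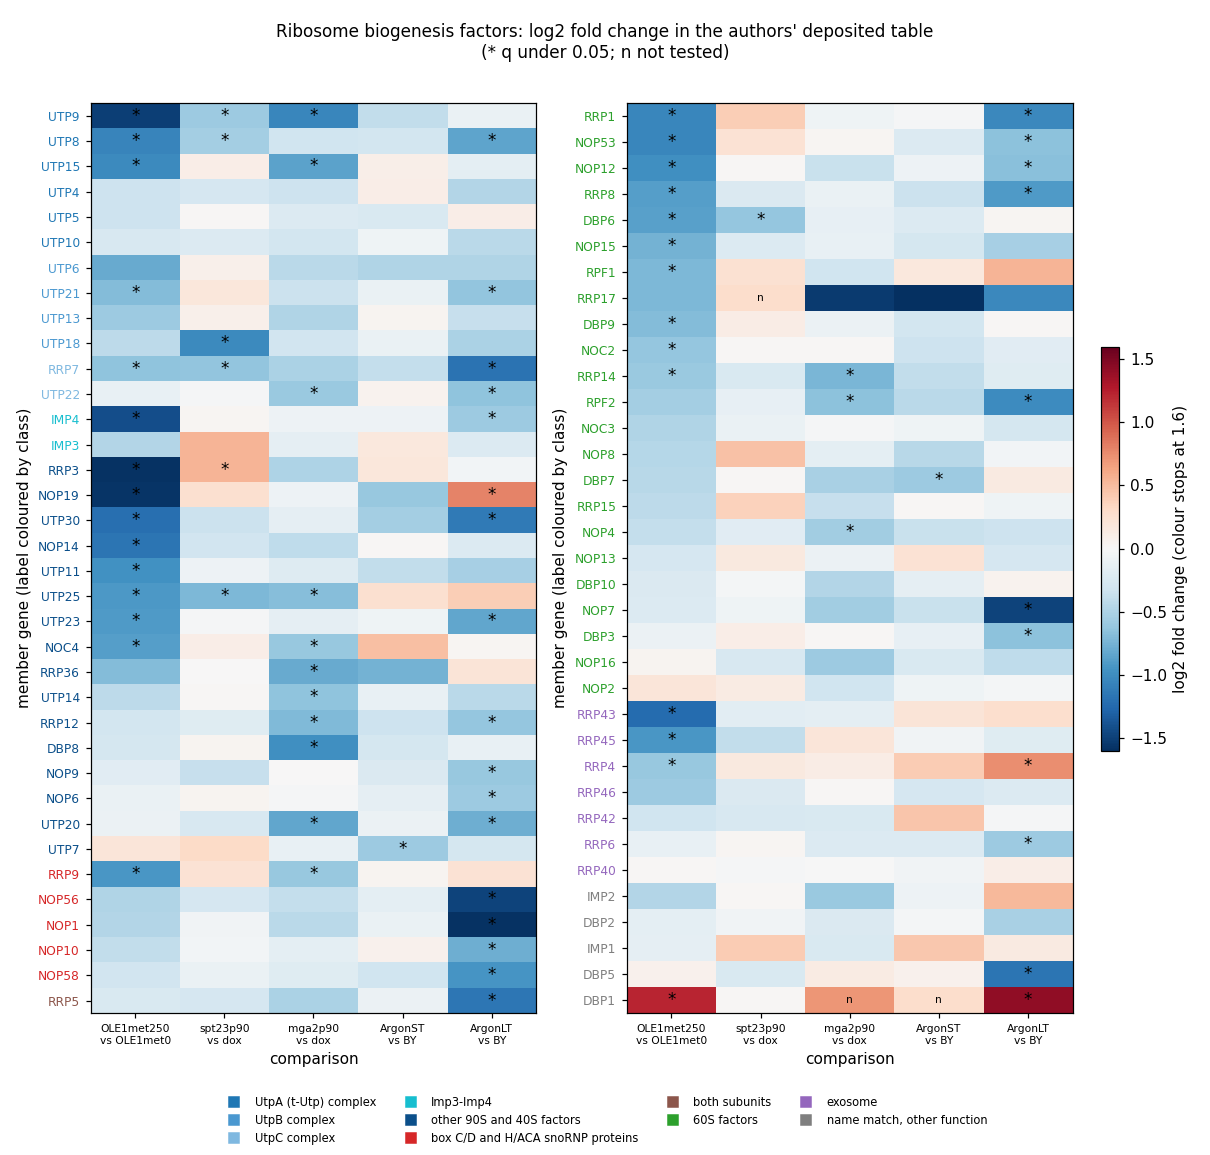
Log2 fold change of all 71 members (rows, grouped by class and ordered by the value in OLE1met250) in the 5 comparisons (columns), from blue (lower) to red (higher), with the colour stopping at 1.6. Asterisks mark a q under 0.05 and n an untested value; the 4 snoRNP proteins NOP1, NOP56, NOP58 and NOP10 carry an asterisk in ArgonLT only, and RRP17 is dark without one.

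The lists of members that fell overlapped in part. UTP9 and UTP25 fell in OLE1met250 and with both fragments, and RRP7 and UTP8 in OLE1met250, with the SPT23 fragment and in ArgonLT. No member was called in 4 or 5 comparisons, 21 were called in 2, 26 in 1 and 20 in none. These counts have no share over all genes beside them either. OLE1met250 and ArgonLT, which share no library, had 10 falls in common, 35.7% of the first list and 40% of the second: IMP4, NOP12, NOP53, RRP1, RRP7, RRP8, UTP8, UTP21, UTP23 and UTP30. These shares are close to those over all members, of which 35.2% fell in ArgonLT and 39.4% in OLE1met250. OLE1met250 and the MGA2 fragment shared 6, 21.4% and 42.9%, again close to the 20% and 39.4% over all tested members. OLE1met250 and the SPT23 fragment shared 5, 17.9% and 83.3%, against 8.57% and 39.4%. The 2 fragments shared UTP9 and UTP25, 33.3% of the 6 falls with SPT23 and 14.3% of the 14 with MGA2, against 20% and 8.57%. None of these overlaps was tested.

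The sizes of the changes showed little correlation between the comparisons with the most calls. Across the 71 members, which share regulation and are not independent, Pearson's r between the log2 fold changes of OLE1met250 and ArgonLT in the authors' deposited table was 0.04 and Spearman's rho -0.08. Over 5579 genes r was 0.10. Between OLE1met250 and the MGA2 fragment r was 0.06 over 70 members, against 0.23 over 5506 genes, and between the MGA2 fragment and ArgonLT it was 0.04, against 0.48 over 5464 genes. These are descriptions, and a difference between 2 comparisons could not be tested without values per library.

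**Figure D4:**
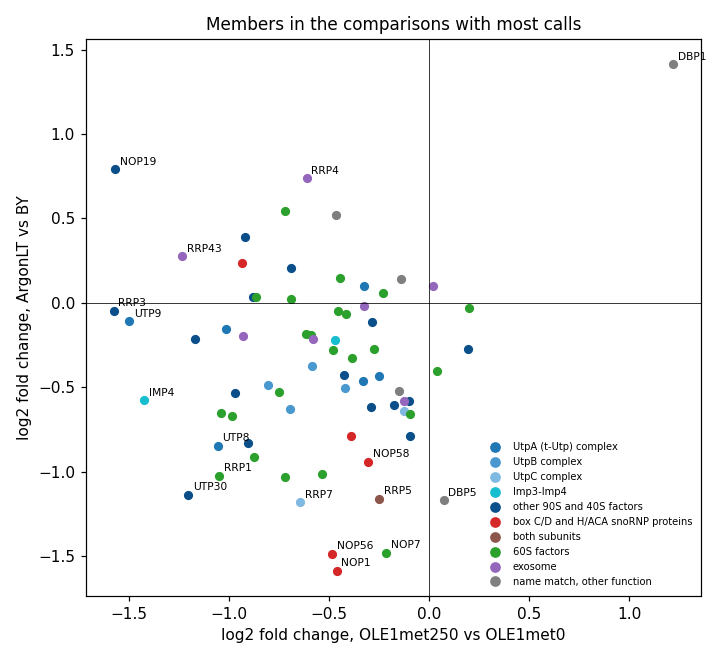
Log2 fold change of the 71 members in OLE1met250 (x axis) and ArgonLT (y axis), coloured by class, with some members named. RRP3 and UTP9 are low in OLE1met250 and near 0 in ArgonLT, NOP1, NOP56 and NOP7 are lowest in ArgonLT, and DBP1 stands alone at the upper right.

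The classes can be read side by side across the comparisons. The snoRNP proteins had a median of -0.46 in OLE1met250 with 1 of 5 lower and of -0.94 in ArgonLT with 4 of 5 lower. The exosome had a median of -0.58 in OLE1met250 with 3 of 7 lower, and of -0.00079 and -0.02 with the MGA2 fragment and in ArgonLT. Of the 16 other 90S and 40S factors, UTP25 fell and RRP3 rose with the SPT23 fragment. The 6 nucleolar DBP helicases (DBP3, DBP6, DBP7, DBP8, DBP9 and DBP10) had scattered calls, DBP6 falling in OLE1met250 and with the SPT23 fragment, DBP9 in OLE1met250, DBP8 with the MGA2 fragment, DBP7 in ArgonST and DBP3 in ArgonLT, while DBP10 was never called. NOC3, a partner of Noc2 in 60S assembly, and IMP3, the partner of Imp4, were not called in any comparison either.

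**Figure D5:**
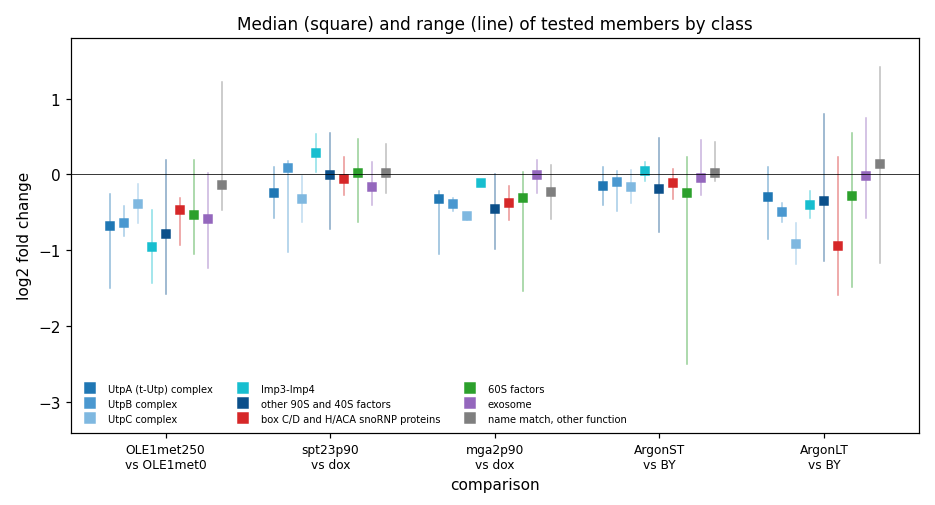
Median (square) and range (line) of the log2 fold change of the tested members of each functional class in the 5 comparisons. RRP5, the only member classed under both subunits, is left out. The median of the snoRNP proteins (red) is -0.94 in ArgonLT, and the long line reaching -2.50 in ArgonST is set by RRP17.

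RRP17, an exonuclease of 60S maturation, had the largest uncalled values of all members in the authors' deposited table, at -1.54 with the MGA2 fragment (q 0.405), -2.50 in ArgonST (q 0.201) and -1.03 in ArgonLT (q 0.404). It was the only member to exceed 2-fold without a call. Its locus (YDR412W, chromosome IV, 1294693 to 1295400) is shared with YDR413C on the other strand, which fell by 0.77 in OLE1met250 and by 1.00 in ArgonLT. How reads were divided between them was not tested. The same holds for NOP56, whose partner YLR198C was at -1.26 in ArgonLT (q 0.0777).

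Calls did not follow the number of promoter elements in one way. In OLE1met250, 13 of 38 members with both cores fell (median -0.47) and 13 of 24 with only 1 of the 2 (median -0.68), and of the 9 with neither, 2 fell and DBP1 rose (median -0.32). In ArgonLT, 14 of 38 with both fell (median -0.43), 8 of 24 with 1 (median -0.36) and 3 of 9 with neither (median -0.19). With the MGA2 fragment it was 10 of 38, 3 of 24 and 1 of 8. The genes that are no members include the assembly factors with other names described next, which were not set apart here. Among all genes that are no members, those with both cores had the lower values. Their median was -0.33 in OLE1met250, -0.26 with the MGA2 fragment and -0.34 in ArgonLT over 220, 221 and 220 genes. With neither core it was 0.03, 0.02 and 0.14. With the SPT23 fragment these medians were -0.08 and -0.04, in the authors' deposited table.

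Assembly factors with other names fell more often than they rose in 4 of the 5 comparisons. Of 103 such genes, 32 fell (31.1%) and 1 rose in OLE1met250 (median -0.49), and 41 fell (39.8%) and 4 rose in ArgonLT (median -0.49). With the MGA2 fragment 15 fell (14.6%) and 1 rose (median -0.30), and in ArgonST 5 fell (4.85%) and none rose (median -0.16). With the SPT23 fragment 1 fell (0.971%) and 1 rose (median -0.05), a smaller share of falls than the 8.57% of members and the 5.49% of all genes. The 4 snoRNP proteins among them fell in ArgonLT as NOP1 and its partners did. SNU13 of the box C/D particles was at -1.42 there, GAR1 at -1.37 and NHP2 at -1.37, both of the H/ACA particles, and CBF5, the pseudouridine synthase, named after its value was seen, at -0.93. SNU13 was the 1 rise in OLE1met250, at 0.90. With the MGA2 fragment SSF1, a 60S factor, fell by 1.14, and in OLE1met250 AIR1, an RNA-binding cofactor of the exosome, had the largest fall of these lists, at -1.82, per the authors' deposited table.

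The list of RNA polymerase I, which makes the precursor that all of these factors act on, also holds its initiation factors, such as UAF30. Of this list, 4 of 14 tested genes fell in OLE1met250, against 14.5% of all genes. In ArgonLT 4 of 15 fell, against 18.4%, and with the MGA2 fragment 1 of 15, against 8.58%. The largest falls of this list were those of UAF30 (-1.35) in OLE1met250, RPA12 (-1.56) in ArgonLT and RPA34 (-0.87) with the MGA2 fragment. With the SPT23 fragment RRN11 and RRN7, both of the core factor that recruits the polymerase, rose by 1.25 and 1.17 in the authors' deposited table. No gene of this list was called in ArgonST.

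The list of regulators holds genes that control the regulon and also regulators of ribosomal protein genes, such as IFH1 and CRF1. It had more rises than falls in each of the 5 comparisons, as did all tested genes together. With each fragment this rested on 1 rise of 15 genes, IFH1 (SPT23) or CRF1 (MGA2), while 6.86% (SPT23) and 12.2% (MGA2) of all genes rose. There 13 of 15 were below 0 with the SPT23 fragment (median -0.25) and 10 of 15 with MGA2 (median -0.11). In OLE1met250, 6 of 15 rose and 1 fell (median 0.34), where 16.7% of all genes rose and 14.5% fell. In ArgonLT 7 of 15 rose (median 0.55), against 24.1% of all genes, and in ArgonST 2 of 15 (median 0.12), against 4.86%. DOT6, a repressor that binds the PAC element, rose by 1.30 in OLE1met250, SCH9, a kinase of the TORC1 pathway, by 0.99 and CRF1, a corepressor of ribosomal protein genes, by 0.93, and the activator SFP1 fell by 0.60. In ArgonLT, CRF1 rose by 2.27, IFH1, a coactivator of ribosomal protein genes, by 1.64 and STB3, which binds the RRPE element, by 1.13. SFP1 rose there, by 0.82, per the authors' deposited table. With the MGA2 fragment CRF1 rose by 1.70, with the SPT23 fragment IFH1 by 0.81, and in ArgonST STB3 by 0.79 and TPK2, a catalytic subunit of protein kinase A, by 0.70. Whether these transcripts bear on the members' values was not tested.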

How the data were processed

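Values were those of the authors' deposited table of 5 comparisons, which holds 1 log2 fold change and 1 q value per gene and comparison and no column per library. Per the file headers, the values of block 1 are log2 differential expression, and those of the other block the authors' q values, a form of p-value. Trimmomatic 0.33, TopHat2 2.0.14, Cuffdiff 2.2.1 and build R64 are named in the submitters' processing notes; their settings, the annotation and strandedness are not stated in any source used here. After 4 emptied lines 6709 genes remained.

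Members were found by name, and all 71 matched RefSeq's R64 annotation by systematic name and symbol; 62 deposited loci equal the RefSeq gene with a start 1 base lower, and the other 9 are wider. A gene counted as tested where its q was below 1. Members called, medians and motif matches were counted with Python 3.11.15, and the counting was tested on simulated data. The members and gene lists were chosen with earlier results of these data known. Named are the members called, the extremes of each name family, the name matches with another function, and up to 3 called genes of each other list and comparison. Of those other lists, SFP1 (OLE1met250 and ArgonLT) and CBF5 (ArgonLT) were named beyond this limit. Whether replicates came from separate cultures enters only through the submitters' term for them, biological replicates. Alternatives were another q, a 2-fold minimum, centring on all genes, untested values, and members or families left out. A further promoter and 1 gene of the list of regulators are not reported here.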

Additional observations from a re-analysis of the deposited data

How the results depend on the processing

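With the authors' q held below 0.01 the members called lower numbered 18 in OLE1met250, 14 in ArgonLT, 5 with the MGA2 fragment, 1 with the SPT23 fragment and 0 in ArgonST, and the rise with the SPT23 fragment was lost, leaving 0. With a minimum of 2-fold the falls were 11, 9, 1, 1 and 0 in the same order, and the rises 1 in ArgonLT and 0 with the SPT23 fragment. At a q under 0.1, ArgonST had 4 falls and 2 rises. Without the 5 name matches of another function, OLE1met250 had 0 rises. Subtracting the median of all tested genes turned the member median with the SPT23 fragment from -0.02 to 0.017 and moved that of ArgonLT to -0.48. Without the NOP family the median was -0.58 in OLE1met250 and -0.25 in ArgonLT, and without the UTP family -0.22 in ArgonLT. All other counts stayed within 1.5 times and all other medians within 0.1, also without the 9 members that share a locus, an alternative chosen after seeing the data. No paired analysis was possible because the table holds no value per library, and for the same reason no replicate could be left out. The table gives no counts, so depth sets an unknown limit on the uncalled members.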
